A study of Rattus norvegicus with 28 samples.

Results

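Transcripts of 7 astrocyte genes were followed in spinal cord and brain of rats labelled mtCO3mut and WT. The genes were chosen by identifier, 7 of 30560 in each count table, with earlier results of these data known. Comparisons of the list with all genes tested are therefore descriptions. Of these, 5 mark reactive astrocytes: Gfap (ENSRNOG00000002919), Vim (ENSRNOG00000018087), Cd44 (ENSRNOG00000006094), Timp1 (ENSRNOG00000010208) and Lcn2 (ENSRNOG00000013973). The remaining 2, S100b (ENSRNOG00000001295) and Aqp4 (ENSRNOG00000016043), are general astrocyte genes and served as a check of composition. All 7 passed the filter on low counts in both tissues.

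In the mtCO3mut rats, cytochrome c oxidase (complex IV of the respiratory chain) was made deficient in neurons by editing of mitochondrial DNA, and the design text names a NeuN-Cre, NeuN being a marker of neurons. The WT rats are the controls. Age, sex and strain are not given by the labels, nor is it said that each sample is another animal, and the p-values below reflect variation between libraries that may be technical in part. Spinal cord and brain each had 4 mtCO3mut and 4 WT samples, and the 6 and 6 samples of an early-stage spinal cord set were not analysed here because the names of their columns could not be tied to a genotype. Each column used is marked plus or minus, and no column names its genotype. The plus mark was taken to mean mtCO3mut and the minus mark WT, which no label states. Libraries are therefore called plus-marked and minus-marked below, and directions against genotype would reverse if the marks meant the opposite. Each mark has 4 libraries per tissue, numbered 1 to 4 in the order of a number held in the column names. The full names differ between tissues, but the same library number stands for the same such number in both.

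Astrocytes respond to injury or neuronal disease by becoming reactive, a state long recognised by more of the intermediate filament protein GFAP. Reactive astrocytes also make more vimentin, a second filament protein, the hyaluronan receptor CD44, the metalloproteinase inhibitor TIMP1 and the iron-siderophore-binding lipocalin LCN2. Most of these genes are also used by other cells, among them endothelial cells, microglia and invading leukocytes. S100B, a calcium-binding protein, and aquaporin 4, the water channel of astrocyte endfeet, are made by astrocytes at rest, and S100B also by cells of the oligodendrocyte lineage.

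Totals in spinal cord were 21008418 to 40359757 counts in plus-marked and 39952615 to 47597097 in minus-marked libraries. In brain they were 64782608 to 82776333 and 33105800 to 62851529, with all plus-marked brain libraries deeper than the deepest minus-marked one. Spinal cord plus-marked library 2 was the shallowest of all. Levels are given as CPM, the count relative to the library total, after scaling of libraries by trimmed mean of M values (TMM). They are not divided by gene length, so they compare libraries and not genes. In bulk tissue, a change in the number of astrocytes and a change in RNA per astrocyte cannot be told apart.

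The start regions of the 4 reactive genes that rose in spinal cord are shown because each was higher in plus-marked libraries there. Each spans 250 bases before to 50 bases after the start of the gene, from RefSeq on build GRCr8, 5′ to 3′ on the strand of the gene. Capitals mark matches to 7 motifs searched on both strands: STAT (TTCNNNGAA), AP-1 (TGANTCA), an AP-1 variant (TGANTAA), the NF-1 half-site (TTGGC), the GC box (GGGCGG), the CCAAT box (CCAAT) and the TATA box (TATAAA).
Gfap promoter, chr10:88361612-88361911, strand minus: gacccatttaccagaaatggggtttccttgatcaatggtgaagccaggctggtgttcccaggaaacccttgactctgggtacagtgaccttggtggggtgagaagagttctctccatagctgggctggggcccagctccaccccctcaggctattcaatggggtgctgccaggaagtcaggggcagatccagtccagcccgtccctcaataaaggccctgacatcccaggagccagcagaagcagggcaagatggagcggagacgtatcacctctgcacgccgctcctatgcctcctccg
Vim promoter, chr17:81577011-81577310, strand plus: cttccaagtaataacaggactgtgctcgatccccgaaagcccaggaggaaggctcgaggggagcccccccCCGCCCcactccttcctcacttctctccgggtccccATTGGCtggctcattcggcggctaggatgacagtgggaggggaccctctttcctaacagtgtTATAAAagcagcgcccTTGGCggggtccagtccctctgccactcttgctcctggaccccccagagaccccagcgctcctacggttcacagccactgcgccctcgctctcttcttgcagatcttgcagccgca
Cd44 promoter, chr3:109699375-109699674, strand minus: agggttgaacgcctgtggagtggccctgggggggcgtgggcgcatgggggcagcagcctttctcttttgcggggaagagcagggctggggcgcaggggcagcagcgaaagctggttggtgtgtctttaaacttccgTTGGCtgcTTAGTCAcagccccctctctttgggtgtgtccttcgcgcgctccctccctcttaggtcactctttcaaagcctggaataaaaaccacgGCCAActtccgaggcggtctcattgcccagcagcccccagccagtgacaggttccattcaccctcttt
Timp1 promoter, chrX:3771073-3771372, strand minus: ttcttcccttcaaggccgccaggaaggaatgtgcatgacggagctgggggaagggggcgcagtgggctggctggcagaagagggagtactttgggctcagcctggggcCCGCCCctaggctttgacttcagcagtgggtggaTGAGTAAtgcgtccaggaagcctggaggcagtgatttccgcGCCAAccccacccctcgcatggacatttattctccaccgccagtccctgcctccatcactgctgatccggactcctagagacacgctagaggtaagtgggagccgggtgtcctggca

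Among 33469 promoters of this length, 8.87% hold the STAT letters, 7.33% the AP-1 letters, 10.7% the AP-1 variant, 45.8% the NF-1 half-site, 33.1% the GC box, 37.5% the CCAAT box and 14.2% the TATA box. The AP-1 variant stood at position -108 of Timp1 and, on the other strand, at -106 of Cd44, and these 2 were its matches among the members. Vim held the TATA box at -82, the GC box at -180 on the other strand, and a CCAAT box at -144 on the other strand that overlaps an NF-1 half-site. The windows of Vim, Cd44 and Timp1 each held an NF-1 half-site, as 45.8% of all promoters do. No letters of the 7 motifs matched in the window of Gfap, which says nothing about the factors named after them.

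In spinal cord, 4 of the 5 reactive genes rose in plus-marked libraries. Gfap was 2.85 times, Cd44 2.37 times, Timp1 1.85 times and Vim 1.73 times the minus-marked level, while Lcn2 did not pass the test. Of the 2 general genes Aqp4 rose and S100b did not pass the test, with a lower level in plus-marked libraries. In all, 5 of 7 genes passed an adjusted p of 0.05, all of them higher, beside 13.5% of the 17134 genes tested, 6.83% higher and 6.66% lower. The median log2 fold change of the 5 reactive genes was 0.89, beside 0.0047 over all genes tested.

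**Figure D1:**
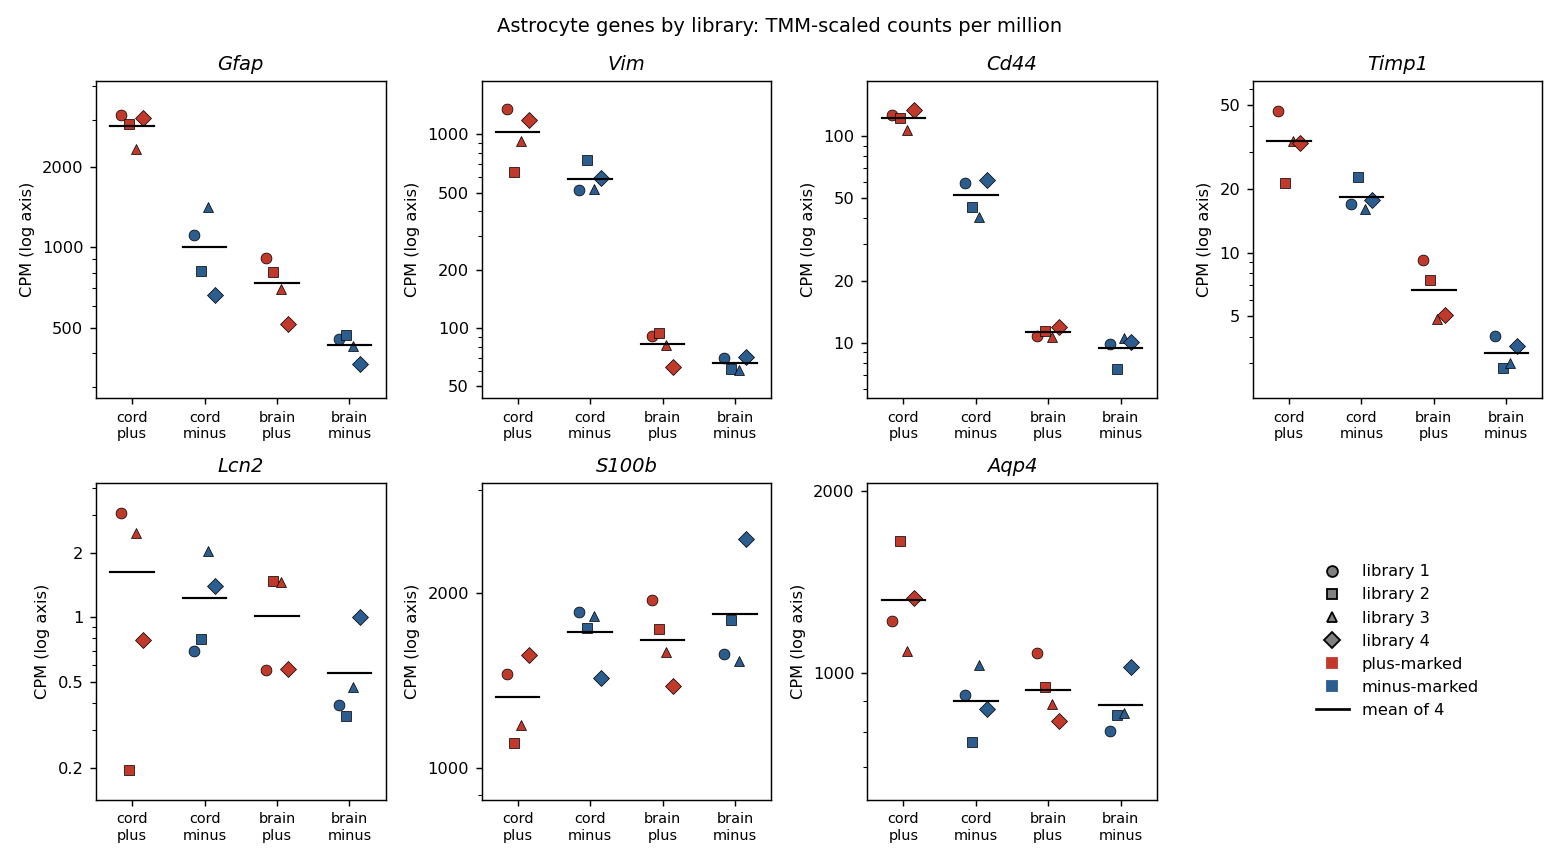
Level of each gene in each library, in TMM-scaled CPM on a log axis, for plus-marked (red) and minus-marked (blue) spinal cord (cord) and brain. Symbols stand for libraries 1 to 4 and bars for the mean of 4. Gfap and Cd44 separate the marks in both tissues, with 2846.6 and 122 CPM on average in plus-marked cord against 1000.4 and 51.7 CPM in minus-marked cord. In brain the gap of Cd44 is small, at 11.2 and 9.46 CPM on average, and its difference did not pass (edgeR adjusted p = 0.562).

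Gfap, the defining filament of astrocytes, had 3129.7, 2880.2, 2323.5 and 3053.0 CPM in plus-marked spinal cord libraries 1 to 4, against 1112.1, 810.5, 1418.0 and 661.2 CPM in minus-marked libraries 1 to 4. The lowest plus-marked library lay well above the highest minus-marked one. The mean was 2846.6 ± 364.0 CPM in plus-marked and 1000.4 ± 335.6 CPM in minus-marked libraries (SD, n = 4 each), which edgeR put at a log2 fold change of 1.51 with an SE of 0.22 (adjusted p = 0.00127). The coefficient of variation was 12.8% in plus-marked and 33.5% in minus-marked cord, an order that was reversed for Gfap in brain, at 23.2% and 10.9%, and for Vim in cord, at 30.4% and 17.3%.

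Vim, which encodes the filament vimentin, was more uneven. Its level was 1346.8, 636.5, 923.6 and 1185.4 CPM in plus-marked libraries 1 to 4, against 514.9, 735.9, 523.6 and 591.9 CPM in minus-marked ones. Plus-marked library 2 lay inside the minus-marked range. By edgeR the difference was 0.79 on the log2 scale, with an SE of 0.21 and an adjusted p of 0.0279.

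Cd44, the hyaluronan receptor, had the smallest p of the members and the 43rd smallest of all genes tested. It was at 126, 123, 108 and 133 CPM in plus-marked libraries 1 to 4, against 59.0, 45.5, 40.7 and 61.7 CPM in minus-marked ones. The marks were far apart, and library 2 stood with its group. On the log2 scale Cd44 was higher by 1.24, with an SE of 0.14 (edgeR adjusted p = 0.000338).

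Timp1, the secreted inhibitor of matrix metalloproteinases, followed Vim. Its level was 47.3, 21.5, 34.0 and 33.4 CPM in plus-marked libraries 1 to 4, against 16.99, 22.9, 16.1 and 17.9 CPM in minus-marked ones. Again plus-marked library 2 lay within the minus-marked range, below minus-marked library 2. The fitted log2 difference was 0.89, SE 0.20 (edgeR adjusted p = 0.0150). In RefSeq's GRCr8 annotation Timp1 lies wholly within Syn1, a neuronal synaptic vesicle gene on the opposite strand. The strand setting of the counting is not given in the sources used here, so reads of the pair may not have been told apart.

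Lcn2, which encodes lipocalin 2, was the member with the fewest counts. It had 129, 4, 96 and 22 counts in plus-marked spinal cord libraries 1 to 4, which is 3.08, 0.195, 2.47 and 0.786 CPM, against 28, 38, 86 and 55 counts in minus-marked ones, or 0.695, 0.798, 2.03 and 1.40 CPM. The plus-marked group held both the highest and the lowest library. The log2 fold change of 0.44 had an SE of 0.63 (edgeR adjusted p = 0.674). The spread between libraries of one mark was wide, with a coefficient of variation of 83.5% in plus-marked and 50.1% in minus-marked libraries.

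The general genes ran in opposite directions. Aqp4, the water channel, had 1221.4, 1655.8, 1088.5 and 1330.0 CPM in plus-marked libraries 1 to 4, against 922.0, 771.7, 1031.9 and 872.9 CPM in minus-marked ones. All plus-marked libraries were above all minus-marked ones, and library 2 was the highest. Its log2 difference was 0.56, SE 0.15 (edgeR adjusted p = 0.0295).

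S100b, the calcium-binding protein gene, had 1449.3, 1104.4, 1189.3 and 1565.9 CPM in plus-marked libraries 1 to 4, against 1855.3, 1738.4, 1827.5 and 1426.9 CPM in minus-marked ones. The ranges overlapped through minus-marked library 4, the lowest of its group. Its log2 difference was -0.37, SE 0.15 (edgeR adjusted p = 0.115), and S100b passed in none of the 17 alternatives, with a negative value in each. Part of S100b overlaps another gene, Dip2a, in the GRCr8 annotation. The marks thus did not overlap for 3 of the 7 genes, Gfap, Cd44 and Aqp4, beside 20.2% of all genes tested and 9.13% with the plus-marked libraries on top.

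The firmness of these calls differed among the genes. Cd44 passed in each of the 17 alternative fits in spinal cord, and its log2 fold change stayed between 1.13 and 1.59. Gfap passed in 16 of 17, including all 8 with 1 library left out. The exception was the fit within L24, a code in the column names carried by 3 plus-marked libraries and minus-marked library 3, the highest of its group for Gfap. There the log2 fold change was 1.00 (edgeR adjusted p = 0.0790, which assumes that a lone minus-marked library varies as much as the rest do).

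Vim and Timp1 were less even across the alternatives. The libraries of the other codes set plus-marked library 2, the low one for both genes, alone against 3 minus-marked ones, so code and library cannot be told apart there. In that fit the log2 fold change was 0.036 for Vim and 0.14 for Timp1. Within L24, where minus-marked library 3 stands alone, it was 1.13 for Vim and 1.24 for Timp1. When L24 entered the fit as a covariate, the log2 fold changes of Vim and Timp1 were 0.59 and 0.71 (edgeR adjusted p = 0.134 and 0.0799). Timp1 still passed with any 1 library left out, at an edgeR adjusted p of at most 0.0483. Vim passed in only 2 of those 8 fits, those without plus-marked library 2 or minus-marked library 2. For Vim the edgeR adjusted p was 0.0641, 0.0554 and 0.0670 without plus-marked library 1, 3 or 4, and 0.0801, 0.0778 and 0.0519 without minus-marked library 1, 3 or 4. Without plus-marked library 2 the log2 fold change was 0.96 for Vim and 1.05 for Timp1 (edgeR adjusted p = 0.00372 and 0.00171).

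Aqp4 passed in 3 of the 8 fits with 1 library left out, with an edgeR adjusted p between 0.0299 and 0.0959 over the 8. It missed without plus-marked library 2 or 4 and without minus-marked library 1, 2 or 4. With L24 as a covariate Aqp4 passed, at a log2 fold change of 0.59 (edgeR adjusted p = 0.0322). Within L24, where minus-marked library 3 stands alone, its log2 fold change was 0.23. In the libraries of the other codes it was 0.94, where plus-marked library 2 stands alone. Each lone library was the highest of its group for Aqp4. The part of the code in these results was not tested beyond these fits, since 4 of the 5 codes in spinal cord hold 1 library each.

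**Figure D2:**
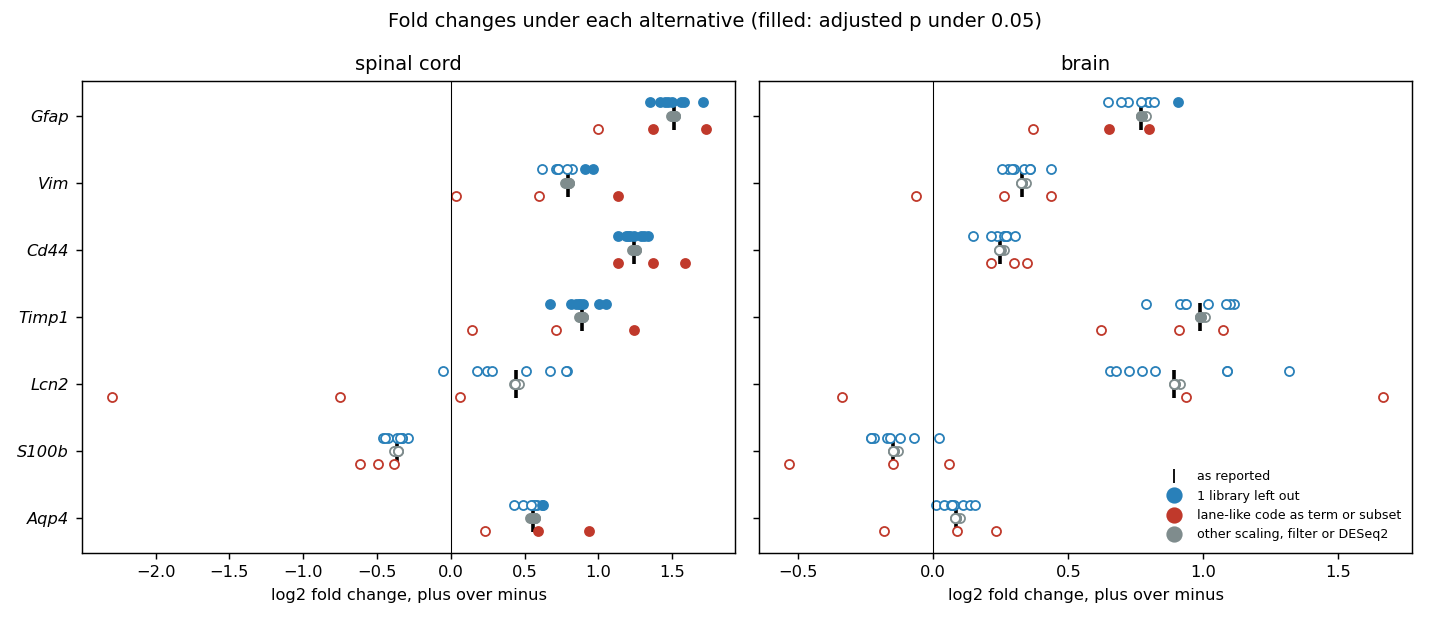
Log2 fold change of plus over minus for each gene in spinal cord and brain under the reported fit (black bar) and each alternative: 1 library left out (blue), covariate or subset by code (red), other scalings, filters or DESeq2 (grey). Filled points have an adjusted p under 0.05. Cd44 in spinal cord stays between 1.13 and 1.59, whereas Lcn2 runs from -2.30 to 0.79.

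In brain, all 5 reactive genes had a higher mean in plus-marked libraries, but 0 of the 7 genes passed an adjusted p of 0.05 by edgeR, beside 0.243% of the 16860 genes tested, 0.19% higher and 0.0534% lower. At an unadjusted p of 0.05 there were 3 of 7, Gfap, Timp1 and Vim, beside 9.13% of all genes tested. DESeq2 called 2 of 7, Gfap and Timp1, beside 1.25% of the genes to which it gave an adjusted p. By p, Gfap ranked 46th and Timp1 68th among all genes tested. The median log2 fold change of the reactive genes was 0.77, beside 0.0014 over all genes tested. The plus-marked brain libraries were the deeper ones, as given above, and the part of depth in these values was not tested.

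Gfap in brain was at 910.0, 807, 697 and 513 CPM in plus-marked libraries 1 to 4, against 455, 470.1, 428 and 364 CPM in minus-marked ones. The marks did not overlap, but plus-marked library 4 came close to the minus-marked range. The fitted log2 difference was 0.77, SE 0.15 (edgeR adjusted p = 0.0571), which is 1.70 times the minus-marked level. This value lies near the threshold: Gfap passed in 5 of 17 alternatives, among them the fits without plus-marked library 4 (log2 fold change 0.91, edgeR adjusted p = 0.00597), with no filter on low counts (edgeR adjusted p = 0.0373) and within code L3 (edgeR adjusted p = 0.0299). When the code entered as a covariate the edgeR adjusted p was 0.0359. Within L1, which sets plus-marked library 4 alone against 2 minus-marked libraries, the log2 fold change was 0.37. The fit within L3 also leaves out plus-marked library 4, so code and library cannot be told apart in these subsets.

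Timp1 in brain was low, with 9.26, 7.40, 4.86 and 5.08 CPM in plus-marked libraries 1 to 4, against 4.03, 2.83, 3.00 and 3.60 CPM in minus-marked ones. These levels rest on 334 to 599 counts in plus-marked and 130 to 202 counts in minus-marked libraries. The marks did not overlap, with a narrow gap. Its log2 difference was 0.99, SE 0.21 (edgeR adjusted p = 0.0781), and it passed with no filter on low counts (edgeR adjusted p = 0.0301) and by DESeq2 (adjusted p = 0.00133).

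Vim in brain had 91.1, 94.5, 81.4 and 63.0 CPM in plus-marked libraries 1 to 4, against 70.2, 61.6, 60.8 and 70.5 CPM in minus-marked ones. Plus-marked library 4 was again the low one and lay inside the minus-marked range. Its log2 difference was 0.33, SE 0.11 (edgeR adjusted p = 0.408).

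Cd44, the member with the smallest p in spinal cord, did not pass in brain. It was at 10.7, 11.5, 10.7 and 11.96 CPM in plus-marked libraries 1 to 4, against 9.82, 7.48, 10.5 and 10.1 CPM in minus-marked ones. The marks stood apart by a small gap, and the log2 difference was 0.25, SE 0.12 (edgeR adjusted p = 0.562). Gfap, Timp1 and Cd44 were the 3 of 7 genes whose marks did not overlap in brain, beside 4.95% of all genes tested and 2.67% with the plus-marked libraries on top.

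Lcn2 in brain had 36, 120, 100 and 42 counts in plus-marked libraries 1 to 4, or 0.569, 1.48, 1.46 and 0.576 CPM, against 14, 16, 32 and 40 counts in minus-marked ones, or 0.392, 0.348, 0.475 and 1.00 CPM. The groups overlapped, and the log2 fold change of 0.89 had an SE of 0.43 (edgeR adjusted p = 0.559). The general genes did not pass either. S100b averaged 1661.7 ± 236.0 CPM in plus-marked and 1842.7 ± 436.2 CPM in minus-marked libraries (SD, n = 4 each), a log2 difference of -0.15, SE 0.15 (edgeR adjusted p = 0.816). Aqp4 averaged 939 ± 105 CPM in plus-marked and 887 ± 96.5 CPM in minus-marked libraries (SD, n = 4 each), a log2 difference of 0.083, SE 0.10 (edgeR adjusted p = 0.856). Minus-marked library 4, with 2472.5 CPM of S100b and 1026.0 CPM of Aqp4, was the highest of its group for both.

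The effect of mark was compared between the tissues by the interaction term of a joint fit. The difference passed for Cd44 and for no other member, 1 of 7 beside 2.79% of the 17823 genes tested, 1.03% with a larger value in spinal cord and 1.77% with a smaller one. The log2 fold change of Cd44 was larger in spinal cord than in brain by 0.99 (SE 0.18, edgeR adjusted p = 0.00663), and this passed in all 24 alternatives, with a difference of 0.88 to 1.08. For Gfap the difference was 0.73 (SE 0.28, edgeR adjusted p = 0.150) and for Aqp4 0.47 (SE 0.18, edgeR adjusted p = 0.156), neither of which passed in any of the 24. Vim had a difference of 0.45 (SE 0.26, edgeR adjusted p = 0.348) and S100b of -0.23 (SE 0.22, edgeR adjusted p = 0.603). For Timp1 it was -0.11 (SE 0.32, edgeR adjusted p = 0.891) and for Lcn2 -0.44 (SE 0.83, edgeR adjusted p = 0.822). Over all genes tested, 183 differences were positive and 315 negative among those called, a split that was 207 and 224 with RLE scaling.

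**Figure D3:**
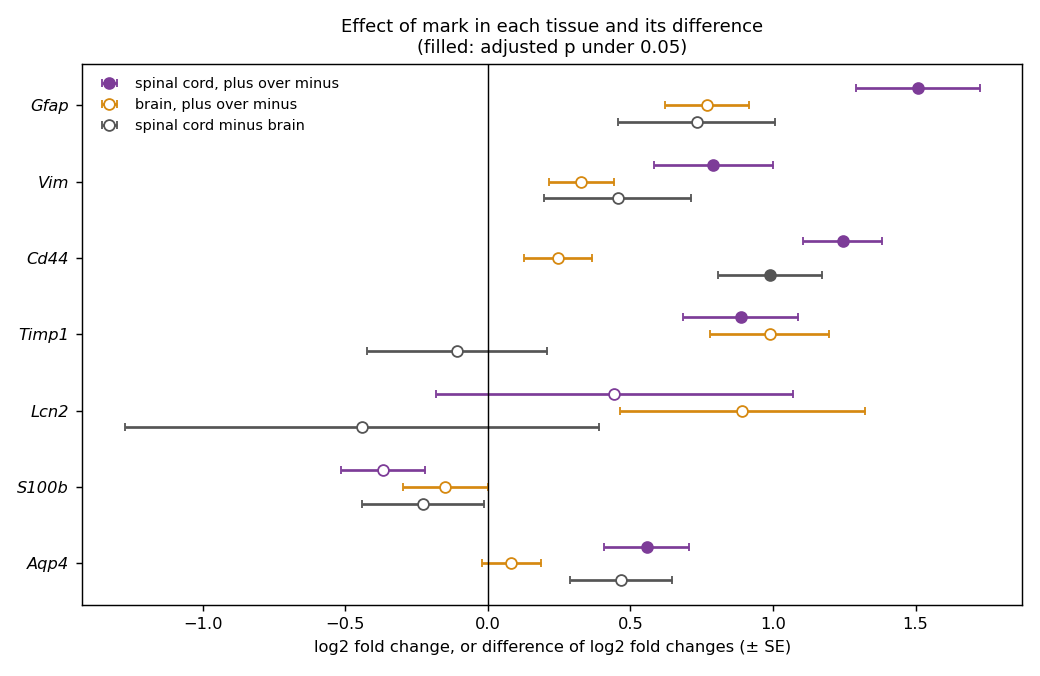
Log2 fold change of plus over minus in spinal cord (purple) and brain (orange), and spinal cord minus brain (grey), for each gene with its SE. Filled points have an adjusted p under 0.05. Cd44 is the one gene whose difference between tissues passed, at 0.99, while Timp1 lies at 0.89 in spinal cord and 0.99 in brain.

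Dividing by a general astrocyte gene in the same library gives a value that does not depend on scaling. Counts of Gfap were 2.56, 1.74, 2.13 and 2.30 times those of Aqp4 in plus-marked spinal cord libraries 1 to 4, against 1.21, 1.05, 1.37 and 0.757 times in minus-marked ones. Every plus-marked library lay above every minus-marked one, and the geometric mean of the ratio was 2.02 times as high. The ratio of Cd44 to Aqp4 was likewise separated, at 0.103, 0.0741, 0.0989 and 0.1003 in plus-marked libraries, against 0.0640, 0.0590, 0.0394 and 0.0706 in minus-marked ones, 1.64 times as high by geometric means. A ratio to Aqp4 with all plus-marked libraries on top was seen for 0.899% of all genes tested, and all plus-marked libraries at the bottom for 41.2%. For Vim and Timp1 the ratios to Aqp4 overlapped, with geometric means 1.15 and 1.23 times as high (exact two-sided permutation p = 0.657 and 0.457).

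Over S100b the spinal cord ratios were separated for Gfap, Cd44, Timp1 and Vim, at 3.82, 3.11, 2.32 and 2.18 times the minus-marked ratio. This choice of denominator is less selective, since 17.4% of all genes tested gave that pattern. The ratio of S100b to Aqp4 was itself separated in spinal cord, at 1.19, 0.667, 1.09 and 1.18 in plus-marked libraries 1 to 4, against 2.01, 2.25, 1.77 and 1.63 in minus-marked ones. It was thus 0.528 times as high in plus-marked libraries, and the general genes give different denominators there.

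In brain the ratio of Gfap to Aqp4 was 0.843, 0.849, 0.781 and 0.615 in plus-marked libraries 1 to 4, against 0.566, 0.549, 0.497 and 0.355 in minus-marked ones, again with no overlap and 1.58 times as high. Such a pattern over Aqp4 was seen for 1.22% of all genes tested in brain, the opposite pattern for 3.24%, and over S100b for 3.07%. Timp1 was 1.82 times as high over Aqp4 and 2.11 times over S100b, with the marks apart for both. Cd44 was 1.13 times as high over Aqp4, with overlap (exact two-sided permutation p = 0.371). Of the 22 ratios examined, the marks were separated in 7 of 11 in spinal cord and in 5 of 11 in brain. These ratios share numerators and denominators, so the counts are not of separate results. The cord count includes S100b over Aqp4, which was lower in plus-marked libraries, as were 41.2% of all genes tested over Aqp4. It also includes the ratios over S100b, where 17.4% of all genes tested were separated with plus-marked libraries on top. Each separated ratio had a two-sided p of 0.0286 by exact permutation, which is the lowest value open to groups of 4, and an adjusted p of 0.0524 over the 22, so none passed. At that lowest value the adjusted p depends on how many ratios were included and separated. It does not depend on the size of any single ratio.

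**Figure D4:**
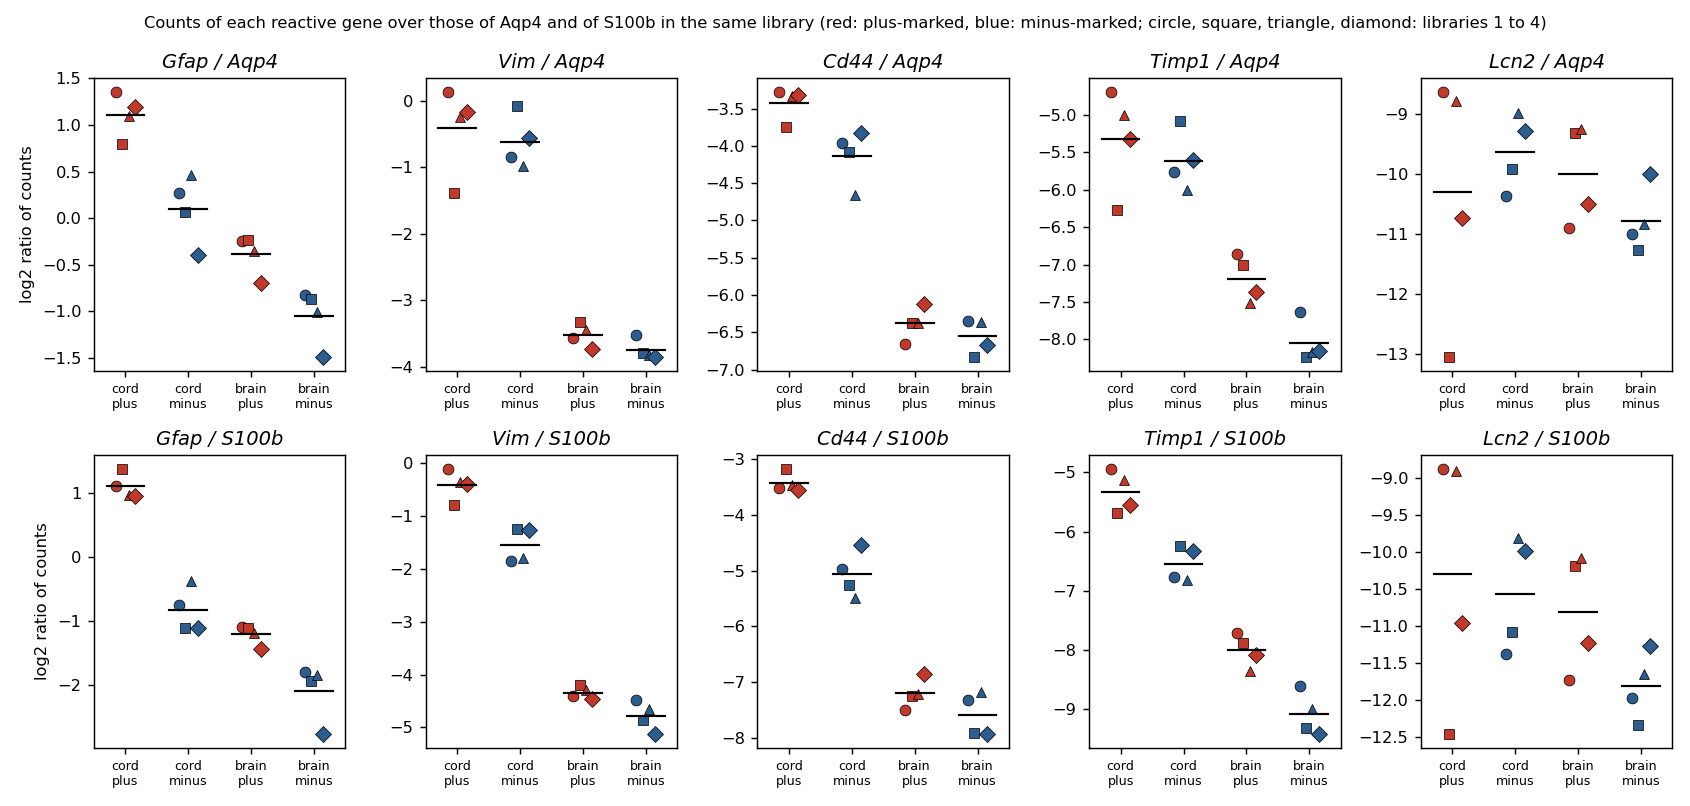
Log2 of the count of each reactive gene over the count of Aqp4 (top) and of S100b (bottom) in the same library, for plus-marked (red) and minus-marked (blue) spinal cord (cord) and brain; bars are means of 4. Gfap over Aqp4 separates the marks in both tissues, by a factor of 2.02 in cord and 1.58 in brain, whereas Vim over Aqp4 overlaps.

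The levels also differ between the tissues. With all libraries scaled together, Gfap averaged 2448.8 CPM in plus-marked cord, 865 CPM in minus-marked cord, 846 CPM in plus-marked brain and 497 CPM in minus-marked brain. The middle pair overlapped, from 577 to 1214 CPM in minus-marked cord and from 593 to 1052 CPM in plus-marked brain. Cd44 kept the order of tissue before mark, at 105 and 44.9 CPM in plus-marked and minus-marked cord, and 12.98 and 10.96 CPM in plus-marked and minus-marked brain. Vim followed the same order, at 881, 513, 95.4 and 76.2 CPM, and so did Timp1, at 29.3, 16.005, 7.69 and 3.90 CPM. For Vim the cord marks and the brain marks each overlapped, and for Timp1 the cord marks did. S100b ran in the reverse order, at 1141.6 CPM in plus-marked cord, 1483.0 CPM in minus-marked cord, 1922.5 CPM in plus-marked brain and 2133.6 CPM in minus-marked brain, with each neighbouring pair overlapping. Aqp4 was at 1138.7 and 779 CPM in plus-marked and minus-marked cord, and at 1086.2 and 1026.9 CPM in plus-marked and minus-marked brain, where only minus-marked cord lay below all other libraries. Lcn2 averaged 1.41, 1.06, 1.18 and 0.641 CPM in the same order of groups, with overlap throughout.

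Between minus-marked cord and minus-marked brain, 6 of the 7 genes differed, 4 higher and 2 lower in cord, beside 70.7% of all genes tested, 36.7% higher and 34% lower. Vim was 6.73 times, Timp1 4.12 times, Cd44 4.09 times and Gfap 1.74 times as high in cord (edgeR adjusted p = 2.32e-10, 1.91e-07, 3.39e-11 and 0.00127). The general genes ran the other way, S100b at 0.695 times and Aqp4 at 0.759 times the brain level (edgeR adjusted p = 0.00457 and 0.00833). Lcn2 did not pass (edgeR adjusted p = 0.284). The reactive genes that rose in plus-marked cord were thus already higher there than in brain without the plus mark. The tissues were deposited as separate tables, so tissue and anything that differed in their preparation cannot be told apart.

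Genes of the set varied together only in part. In deviations from the mean of tissue and mark, which leave out the effect of mark, Vim and Timp1 had a Pearson r of 0.94 over the 8 spinal cord libraries and 0.76 over the 8 brain libraries. Gfap and Cd44 had an r of -0.38 in cord and -0.42 in brain over the same libraries. For Gfap and Cd44 in cord, the pooled value did not hold within each mark. In plus-marked cord, libraries 1 and 4 were the highest and library 3 the lowest in both Gfap and Cd44. In minus-marked cord, library 3 was the highest in Gfap and the lowest in Cd44, and library 4 the lowest in Gfap and the highest in Cd44. The same deviations were also set against those of the general genes. Vim, Timp1 and Gfap had an r with Aqp4 of -0.73, -0.81 and 0.52 in cord, and of 0.62, 0.60 and 0.34 in brain. With S100b their values were 0.58, 0.48 and 0.62 in cord, and 0.62, 0.49 and 0.21 in brain. The values describe few libraries, which also differ in depth.

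With only tissue removed, the profile of Gfap over 16 libraries had an r of 0.79 with Aqp4, 0.77 with Cd44, 0.72 with Timp1, 0.70 with Vim, 0.093 with Lcn2 and -0.36 with S100b. Unlike the deviations above, these profiles keep the difference between marks, so genes that differ by mark correlate through it. The genes most like Gfap among 16182 were ENSRNOG00000032871 (r = 0.97) and ENSRNOG00000018509 (r = 0.96), which the sources used here do not pair with names. Timp1 ranked 39th among the genes most like Vim, with an r of 0.87. The member nearest to Gfap, Aqp4, ranked 311th. The 16 libraries carry 8 numbers, each found in both tissues, so they may not be independent.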

How the data were processed

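Gene counts came from rat spinal cord (a table titled as lumbar) and brain, 8 libraries each. Total RNA was depleted of ribosomal RNA and made into dUTP-marked, paired-end libraries, per the labels' protocols. Reads were trimmed with cutadapt and counted with featureCounts on mRatBN7.2, per the submitters' processing notes, which also name DESeq2; which aligner and strand setting were used is not given in the sources used here. The authors deposited raw counts per gene, whole numbers with no normalization. The 12 columns of the early-stage table, named by index codes, were not used here.

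Counts were tested with edgeR 4.0.16 (R 4.3.3): filterByExpr, TMM scaling, and the robust quasi-likelihood F test on mark within each tissue as a two-sided test. P-values were adjusted by Benjamini-Hochberg across every gene in the fit, with a threshold of 0.05. The tissue difference was the interaction term of a joint fit of 16 libraries. Standard errors were derived from the F statistic. Log2 CPM used a prior count of 2. Ratios were tested by exact permutation of libraries (scipy 1.17.1). The functions were run on counts simulated from the same kind of model. That checks the calculation and not how well the model suits these data. Alternatives were RLE and upper-quartile scaling, library sizes without the 10 most abundant genes, DESeq2 1.42.0, no filter, a mean of at least 1 CPM, a lane-like code carried by the column names (in spinal cord L24 against the others) as a covariate or subset, a block by number in the joint fit, and leaving out each library.

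The members and lists were chosen with earlier results of these data known. All 7 members are described by rule, under the gene names that came with their identifiers, since the tables hold identifiers only. Lists of further reactive, cell type and tissue markers were fixed by symbol, but Ensembl identifiers are given for 0 of the 47357 genes in the reference table. None was therefore tested and the edited gene was not examined. Neither cell composition nor tissue identity was checked by markers beyond S100b and Aqp4. In spinal cord these ran in opposite directions (log2 fold change -0.37 and 0.56), so they gave no single reading of composition there. The genes most like each reactive gene were found, but are given above for Gfap alone, and by identifier for want of names.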

Additional observations from a re-analysis of the deposited data

Results flagged for a closer look

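Cd44 stood out because its response to mark differed between the tissues by the interaction term. Its log2 fold change was larger in spinal cord than in brain by 0.99 (edgeR adjusted p = 0.00663), with 122 ± 10.8 CPM in plus-marked and 51.7 ± 10.2 CPM in minus-marked cord, and 11.2 ± 0.602 and 9.46 ± 1.35 CPM in plus-marked and minus-marked brain (SD, n = 4 each). In each tissue the lowest plus-marked library was above the highest minus-marked one. In brain that gap was small and Cd44 did not pass (edgeR adjusted p = 0.562). Its brain ratios to Aqp4 and to S100b overlapped. In the 28 combinations of gene and group of 4 libraries, 0 held a library far enough from the other 3 to be set apart. Chance gives about 1 in 20. Groups of 4 can rarely show such a library, and the combinations reuse the same 16 libraries, so deviant libraries are not excluded.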

How the results depend on the processing

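Scalings, filters and DESeq2 left the 5 spinal cord calls in place. With the code as a covariate 3 of 7 members passed, while 2636 genes were called in all against 2312. The subsets by code, which use 4 of the 8 libraries and leave 1 alone in a mark, gave 3 members and 267 genes within L24, and 3 members and 1089 genes within the other codes. With 1 library left out, 3 to 4 members and 1175 to 2114 genes passed in spinal cord. In brain 2 members passed with no filter (74 genes in all), 1 with the code as a covariate, 1 within L3 and 2 by DESeq2 (210 genes), and within L1 71 genes were called against 41. With 1 brain library left out, 0 to 1 members and 8 to 60 genes passed. The interaction gave 498 genes, 1129 by DESeq2 and 215 to 647 with 1 library left out. Directions turned for values that did not pass. Lcn2 in spinal cord was -0.75 with the code as a covariate, -2.30 in the other codes and -0.054 to 0.79 with 1 library left out. In brain within L1, Vim was -0.064, Lcn2 -0.34 and Aqp4 -0.18. S100b in brain was 0.058 within L3 and -0.23 to 0.021 with 1 library left out. The difference between tissues for Timp1 was -0.32 to 0.087 with 1 library left out. The cause was not tested. Lcn2 in brain was not among the genes with a mean of at least 1 CPM.

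Same-numbered spinal cord and brain libraries deviated together for 6 of 8 numbers (r over 0.1, range -0.054 to 0.27). Compared only with brain libraries of the same mark, 7 of 8 spinal cord libraries correlated best with their own number. Deviations are taken from the mean of each group, so these correlations are not independent. This is a hint from the data and not from the labels. With the number as a replicate block, the interaction gave 696 genes, and Cd44 was again the 1 member that passed (1.00, edgeR adjusted p = 0.00519; Gfap 0.81, edgeR adjusted p = 0.0576). No paired analysis was possible between marks within a tissue because their columns share no number. The early-stage comparisons were not run. Lcn2 had 4 to 129 counts per library, and what part depth has in its spread was not tested.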
